A study of Mus musculus with 137 samples.

Results

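The growth arrest and DNA damage inducible genes Gadd45a, Gadd45b and Gadd45g and the sestrin genes Sesn1, Sesn2 and Sesn3 were described in the duodenum of mice that drank hexavalent chromium. These 6 genes, of 21450 on the platform, were taken by symbol, and each is represented by its most counted probe over all 71 crypt and 66 villus libraries. Expression was measured with TempO-Seq, in which a pair of detector oligomers hybridizes to each transcript, is ligated, amplified and sequenced, so that a count is the number of reads of 1 probe. Female wildtype B6C3F1 mice received Cr(VI) as sodium dichromate dihydrate in the drinking water at 0, 0.1, 1.4, 5, 20, 60 or 180 ppm for 7 or 90 days, and are named here by days 8 and 91. Sections of formalin-fixed, paraffin-embedded duodenum were dissected, and the crypt compartment and the villus compartment were scraped and sequenced separately. Each of the 28 groups of compartment, day and dose held 5 libraries, except that on day 8 the 0.1 ppm crypt group held 6 and the villus groups of 5, 20 and 180 ppm held 4, as did the untreated villus group of day 91. The untreated mice drank water at 0 ppm and shared strain, sex and fixation with the exposed mice, and each library came from 1 mouse.

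GADD45 proteins are small, acidic proteins without enzyme activity that bind partners: they activate the MAP kinase kinase kinase MEKK4 and so p38 and JNK, bind PCNA and CDK1 with cyclin B, and take part in active DNA demethylation with the glycosylase TDG. Gadd45a is the classical p53 target of the family, Gadd45b is induced by NF-kB and TGF-beta signalling, and Gadd45g by cytokines and differentiation. Sestrins restrain the growth kinase complex mTORC1: SESN1 and SESN2 bind GATOR2 and release it when they bind leucine, sestrins also act with AMPK, and SESN2 links the autophagy receptor p62 to KEAP1. Sesn1 is a p53 and FoxO target, Sesn2 responds to p53, ATF4 and NRF2, and Sesn3 is a FoxO target. In the intestine, cells divide in the crypt, migrate up the villus and are shed at its tip.

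The promoters of Gadd45a, Gadd45b and Sesn1, the genes with more than 1 called comparison, are shown first, so that the letters they hold can be read beside their values. In the annotation of GRCm38, Gadd45a lies on the minus strand at chr6:67035096-67037457, Gadd45b on the plus strand at chr10:80930073-80932204 and Gadd45g on the plus strand at chr13:51846678-51848468. Sesn1 lies on the plus strand at chr10:41809935-41908424, Sesn2 on the minus strand at chr4:132492032-132510501 and Sesn3 on the plus strand at chr9:14275067-14333101. RefSeq promoter sequences of GRCm38.p6, from 250 bases before to 50 bases after a transcription start, were found for 6 of 6 genes, with 2 starts for Sesn1. They are printed on the gene's strand, with searched motifs in capitals, for Gadd45a (chr6:67037358-67037657, minus strand), Gadd45b (chr10:80929841-80930140, plus strand) and the first and second start of Sesn1 (chr10:41810324-41810623 and chr10:41887189-41887488, plus strand).
Gadd45a: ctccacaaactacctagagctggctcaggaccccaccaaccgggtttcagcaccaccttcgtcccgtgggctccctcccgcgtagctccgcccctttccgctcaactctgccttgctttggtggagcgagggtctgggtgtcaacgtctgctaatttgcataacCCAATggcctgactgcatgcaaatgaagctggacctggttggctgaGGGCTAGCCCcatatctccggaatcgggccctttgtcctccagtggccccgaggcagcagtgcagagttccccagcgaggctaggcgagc
Gadd45b: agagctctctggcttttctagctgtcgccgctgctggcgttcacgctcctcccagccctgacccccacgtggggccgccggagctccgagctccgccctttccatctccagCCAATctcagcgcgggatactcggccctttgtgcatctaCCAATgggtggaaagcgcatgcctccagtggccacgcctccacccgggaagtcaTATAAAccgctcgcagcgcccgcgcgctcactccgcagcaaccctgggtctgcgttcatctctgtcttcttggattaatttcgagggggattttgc
Sesn1, first start: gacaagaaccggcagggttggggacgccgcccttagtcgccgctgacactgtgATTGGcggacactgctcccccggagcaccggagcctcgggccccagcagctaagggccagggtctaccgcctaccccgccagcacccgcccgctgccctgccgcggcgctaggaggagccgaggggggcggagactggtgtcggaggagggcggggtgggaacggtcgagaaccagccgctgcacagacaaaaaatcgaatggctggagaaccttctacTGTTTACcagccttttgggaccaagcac
Sesn1, second start: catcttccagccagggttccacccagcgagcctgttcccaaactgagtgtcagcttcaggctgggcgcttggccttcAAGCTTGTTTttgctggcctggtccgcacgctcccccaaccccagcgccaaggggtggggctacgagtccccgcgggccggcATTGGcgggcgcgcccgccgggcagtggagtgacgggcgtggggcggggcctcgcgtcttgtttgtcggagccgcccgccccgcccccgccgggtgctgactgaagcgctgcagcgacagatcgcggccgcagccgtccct

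In the Gadd45a promoter the capitals mark a CCAAT box 86 to 82 bases upstream of the start and a p53 half-site 40 to 31 bases upstream. In the Gadd45b promoter they mark CCAAT boxes 139 to 135 and 100 to 96 bases upstream and a TATA box (TATAAA) 46 to 41 bases upstream. At the first start of Sesn1 they mark a CCAAT box on the reverse strand and a FoxO site (GTAAACA) on the reverse strand 22 to 28 bases downstream, and at the second start a p53 half-site 173 to 164 bases upstream and a CCAAT box on the reverse strand. Both strands were searched. All 7 promoters of the 6 genes held CCAAT, against 37.4% of 32817 promoters, and 2 held a p53 half-site, against 8.36%. The TATA box was in 2 (Gadd45b and Gadd45g, against 13.6%), the antioxidant response element core TGACNNNGC in 2 (Gadd45g and Sesn2, against 12.4%), the composite element of ATF4, TGATGNAA, in 1 (Gadd45g, against 3.97%), and the FoxO site in 1 (against 3.65%). No promoter of the 6 genes held the letters of the NF-kB site (4.5% of all promoters), the AP-1 site TGACTCA (5.2%), the cAMP response element TGACGTCA (1.79%), the CArG box (1.63%) or the SMAD palindrome GTCTAGAC (0.213%). A match of letters is a description and not a site.

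Library totals ran from 1463938 to 7199801 counts with a median of 3592983. The group with the lowest median was the untreated villus of day 91, with totals of 1667014 to 2678299, against 3030885 to 4574064 at 180 ppm. Levels are given as CPM (reads of a probe per 1e6 scaled reads of the library) after TMM scaling, and as probes differ in efficiency no level was compared between genes. Marker sums checked the dissection: in untreated mice of day 91, 6 of 8 crypt markers were higher in crypt and 7 of 9 villus markers higher in villus, whereas on day 8 the counts were 0 of 8 (by edgeR) and 4 of 9. On day 8 the untreated villus library of mouse 48 had a crypt marker sum of 11990 CPM, against 1392 to 5439 in the other untreated villi, and the untreated crypt library of mouse 49 had one of 1557 CPM, against 5425 to 19980 in the other crypts. Without these 2 libraries no dose comparison, dose trend or crypt against villus comparison of day 8 gained or lost its call in the 6 genes, and values without them are given beside the called doses of day 8. In bulk tissue, fewer cells of a type and less RNA per cell cannot be told apart.

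Of 144 comparisons of the 6 genes with the untreated group of the same compartment and day, 12 were called, that is, passed an adjusted p of 0.1 (edgeR quasi-likelihood test, Benjamini-Hochberg over 26365 probes), 5 of them increases and 7 decreases. Gadd45b accounted for the 5 increases, 4 in villus and 1 in crypt, all on day 91. Sesn1 accounted for 4 of the decreases, in both compartments, Gadd45a for 2, both on day 8, and Sesn2 for 1. By set of compartment and day, 1 of 36 comparisons was called in crypt on day 8, 2 in crypt on day 91, 2 in villus on day 8 and 7 in villus on day 91. Gadd45g and Sesn3 were called at no dose.

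**Figure D1:**
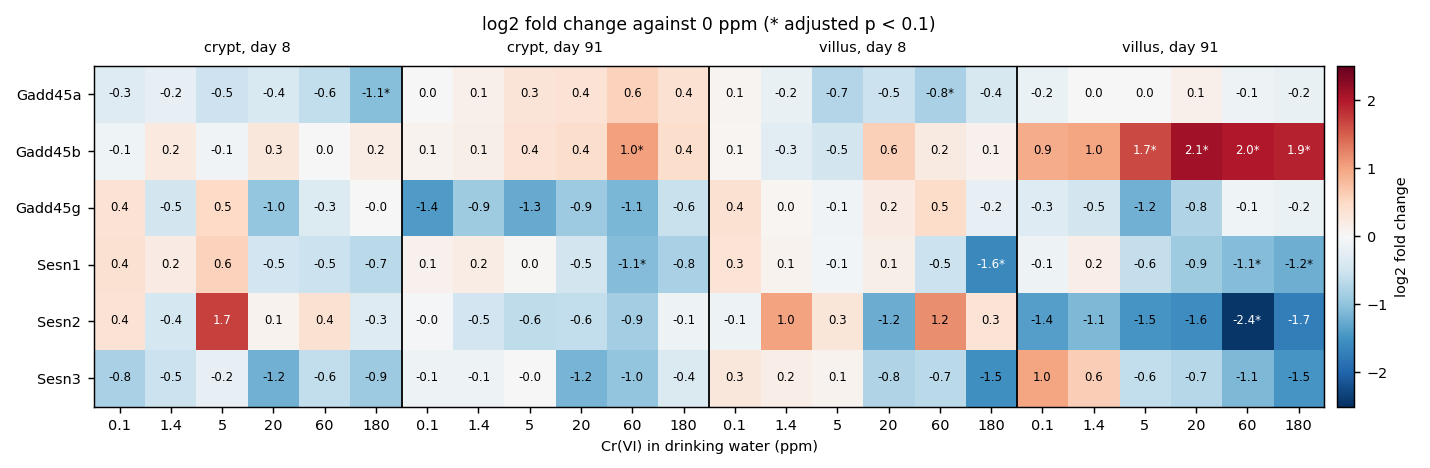
Each cell gives the log2 fold change of 1 gene (row) at 1 dose in ppm (column) against the untreated group of the same compartment and day, and a star marks an adjusted p under 0.1. The 5 starred increases are in the Gadd45b row and all on day 91, with 2.10 in the villus at 20 ppm, and the 7 starred decreases are in the rows of Gadd45a, Sesn1 and Sesn2.

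These counts stand beside the share of all 26365 tested probes that passed the same threshold. In crypt on day 8, going up the 6 doses, it was 0.0152, 0.00379, 0.0152, 0.247, 2.14 and 4.13%, and 1 of the 6 genes was called, at 180 ppm. In crypt on day 91 it was 0.0, 0.0, 0.00379, 0.535, 14.5 and 6.49%, and 2 of 6 were called at 60 ppm and none at 180 ppm (1 at an unadjusted p under 0.05, 1 by DESeq2). The villus of day 8 gave 0.0, 1.52, 0.357, 2.61, 6.58 and 5.97%, with 1 of 6 called at each of the last 2 doses. The villus of day 91 gave 0.0341, 0.0341, 10.9, 14.7, 15.5 and 13.8%, with 1, 1, 3 and 2 of 6 called from 5 ppm upward.

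At 0.1 and 1.4 ppm none of 48 comparisons of the 6 genes passed in edgeR or in DESeq2, and 3 had an unadjusted p under 0.05. At 180 ppm the median log2 fold change of the 6 genes was -0.50 in crypt on day 8, -0.24 in crypt on day 91, -0.31 in villus on day 8 and -0.70 in villus on day 91. The medians over all probes were -0.04, 0.0, -0.09 and 0.10. In villus on day 91 the median of all probes was shifted by 0.39, 0.27 and 0.18 at 5, 20 and 60 ppm. The increase of the most counted Gadd45b probe there exceeded these shifts. The second Gadd45b probe did not exceed the shift at 5 ppm, where it was at 29.0 CPM against 30.1 CPM untreated. With DESeq2 size factors in place of TMM, the share of higher calls over all probes moved from 69.5, 69.4, 66.0 and 64.3% to 50.9, 41.9, 36.0 and 40.8% at 5, 20, 60 and 180 ppm in villus on day 91. It moved from 67.4 to 40.2% at 60 ppm in crypt on day 91, and from 25.5 to 37.5% at 180 ppm in crypt on day 8. No call of the 6 genes changed direction with that scaling.

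Gadd45a, whose product takes part in growth arrest and repair after DNA damage, was called lower by its most counted probe, the one chosen to stand for the gene, after 7 days of exposure in both compartments, and by that probe at no dose after 90 days. A less counted probe of the gene, described with the other probes, was called lower on day 91. In untreated crypts of day 8 the chosen Gadd45a probe was at 118, 168, 214, 235 and 238 CPM (195 ± 51.4, SD, n = 5), and at 180 ppm at 82.8, 86.4, 95.5, 98.0 and 102 CPM (92.9 ± 8.06, SD, n = 5). Every exposed crypt was below every untreated crypt. The log2 fold change was -1.06 (SE 0.257, adjusted p = 0.00426, edgeR), and -0.99 without the 2 libraries named above (adjusted p = 0.0259). The intermediate doses gave group means between 126 CPM at 60 ppm and 169 CPM at 1.4 ppm, and none was called by edgeR (2 at an unadjusted p under 0.05), while DESeq2 called the decrease at 60 ppm.

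In the villus of day 8, Gadd45a fell at 60 ppm. Untreated villi were at 166, 217, 224, 299 and 339 CPM (249 ± 69.0, SD, n = 5), and villi at 60 ppm at 94.5, 98.9, 158, 161 and 187 CPM (140 ± 41.1, SD, n = 5). The ranges overlapped, and the log2 fold change was -0.82 (SE 0.255, edgeR adjusted p = 0.042, and 0.0215 without the 2 libraries named above). This call was lost when any 1 of 4 libraries was left out: untreated mouse 47 or 49, or mouse 447 or 449 at 60 ppm. At 180 ppm the villi were at 120, 184, 215 and 235 CPM, a log2 fold change of -0.40 that was not called (adjusted p = 0.457, edgeR).

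On day 91 no dose changed the chosen Gadd45a probe past the threshold in either compartment, unlike the less counted probe described with the other probes. Untreated crypts were at 136.5, 137.1, 168, 177 and 220 CPM and crypts at 180 ppm at 92.2, 139, 173, 294 and 393 CPM, so that the exposed crypts lay on both sides of the untreated ones. The log2 fold changes in crypt were 0.57 at 60 ppm (edgeR adjusted p = 0.139) and 0.38 at 180 ppm (edgeR adjusted p = 0.491). Untreated villi of day 91 were at 209, 283, 301 and 331 CPM and villi at 180 ppm at 190, 208, 214, 284 and 340 CPM, a log2 fold change of -0.18 (edgeR adjusted p = 0.743).

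By the chosen probe, the change of Gadd45a with 180 ppm was called different between the days in crypt in the main edgeR fit. The difference of its log2 fold changes, day 91 minus day 8, was 1.44 (SE 0.358, edgeR adjusted p = 0.0914), the only 1 of 24 such tests of the 6 genes past the threshold, against 0.11% of all probes. It missed the threshold in 9 of 11 other settings (log2 1.13 to 1.46 over all 11) and in 15 of 20 fits that left out 1 library, and DESeq2 gave an adjusted p of 0.100. In the same comparison the villus gave 0.22 for Gadd45a (edgeR adjusted p = 0.935). For the other Gadd45a probes, the dose trends in crypt on days 8 and 91 are given in log2 units per dose step. The probe with 12369 counts gave -0.253 and -0.127, called on day 8 only. That with 32702 counts gave -0.082 and 0.045, neither called.

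Other tissue markers moved with Gadd45a in these groups. In crypt on day 8, the villus marker sum was 13670 to 36640 CPM without and 4294 to 7256 CPM with 180 ppm, and 6 of 9 villus markers, 2 of 6 leukocyte markers and 2 of 3 goblet markers were lower. In villus on day 8, the villus marker sum was 18170 to 55360 CPM without and 15330 to 30040 CPM with 60 ppm, and 3 of 9 villus and 3 of 8 crypt markers were lower. The part of these cells in the levels of Gadd45a was not tested.

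Gadd45b, which is induced by NF-kB and TGF-beta and acts on MEKK4, was called higher in the villus of day 91 at every dose from 5 ppm by its most counted probe. Its second probe was called there at no dose (log2 fold changes of 0.04, 0.82, 0.80 and 0.23 at 5, 20, 60 and 180 ppm), and with both probes summed the 5 ppm call was lost (0.70, edgeR adjusted p = 0.183). The values that follow are of the most counted probe. Untreated villi were at 4.22, 8.81, 19.4 and 32.1 CPM (16.1 ± 12.4, SD, n = 4), from 8, 23, 39 and 84 counts. Villi at 5 ppm were at 41.0, 48.3, 48.6, 51.4 and 79.1 CPM (53.7 ± 14.7, SD, n = 5), a log2 fold change of 1.66 (SE 0.424, edgeR adjusted p = 0.00558). Villi at 20 ppm were at 56.8, 62.2, 63.4, 81.3 and 103 CPM (73.4 ± 19.1, SD, n = 5), the highest mean of the 28 groups, with a log2 fold change of 2.10 or 4.28-fold (SE 0.417, edgeR adjusted p = 6.72e-05). No villus at 5 or 20 ppm overlapped the untreated villi.

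At the 2 highest doses Gadd45b was also called higher. Villi at 60 ppm were at 46.6, 58.8, 68.4, 82.4 and 84.0 CPM (68.0 ± 15.8, SD, n = 5; log2 fold change 2.01, SE 0.416, edgeR adjusted p = 0.000101). Villi at 180 ppm were at 37.2, 47.7, 57.2, 82.2 and 98.9 CPM (64.7 ± 25.4, SD, n = 5; log2 fold change 1.92, SE 0.418, edgeR adjusted p = 0.000287). Again all were above the untreated villi. The lowest doses lay between, with 32.0 ± 11.1 CPM at 0.1 ppm and 33.4 ± 11.2 CPM at 1.4 ppm (SD, n = 5), and were not called (edgeR adjusted p = 0.569 and 0.428).

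The untreated villi of day 91 had the lowest mean of Gadd45b in the 28 groups, 16.1 CPM, while the untreated crypts of day 91 and the untreated groups of day 8 had means of 31.3 to 36.9 CPM. They were also the shallowest villi, with a median of 13986.5 detected probes against 18210 at 180 ppm. With counts thinned to the smallest library total the log2 fold changes were 1.36, 2.08, 1.87 and 1.76 at 5, 20, 60 and 180 ppm, and with log10 total count as a covariate 1.58, 1.95, 1.85 and 1.79, all called by edgeR. With DESeq2 size factors they were 1.53, 1.79, 1.65 and 1.67, also called. Leaving out any 1 untreated villus left the 4 calls of this probe standing. Leaving out any 1 villus at 20, 60 or 180 ppm did not remove the call at its dose. The log2 fold changes in these fits were 1.39 to 2.23 at 5 ppm and 1.64 to 2.53 at 180 ppm. No villus at 5 ppm was left out, so the range at 5 ppm comes from the 4 untreated villi only.

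**Figure D2:**
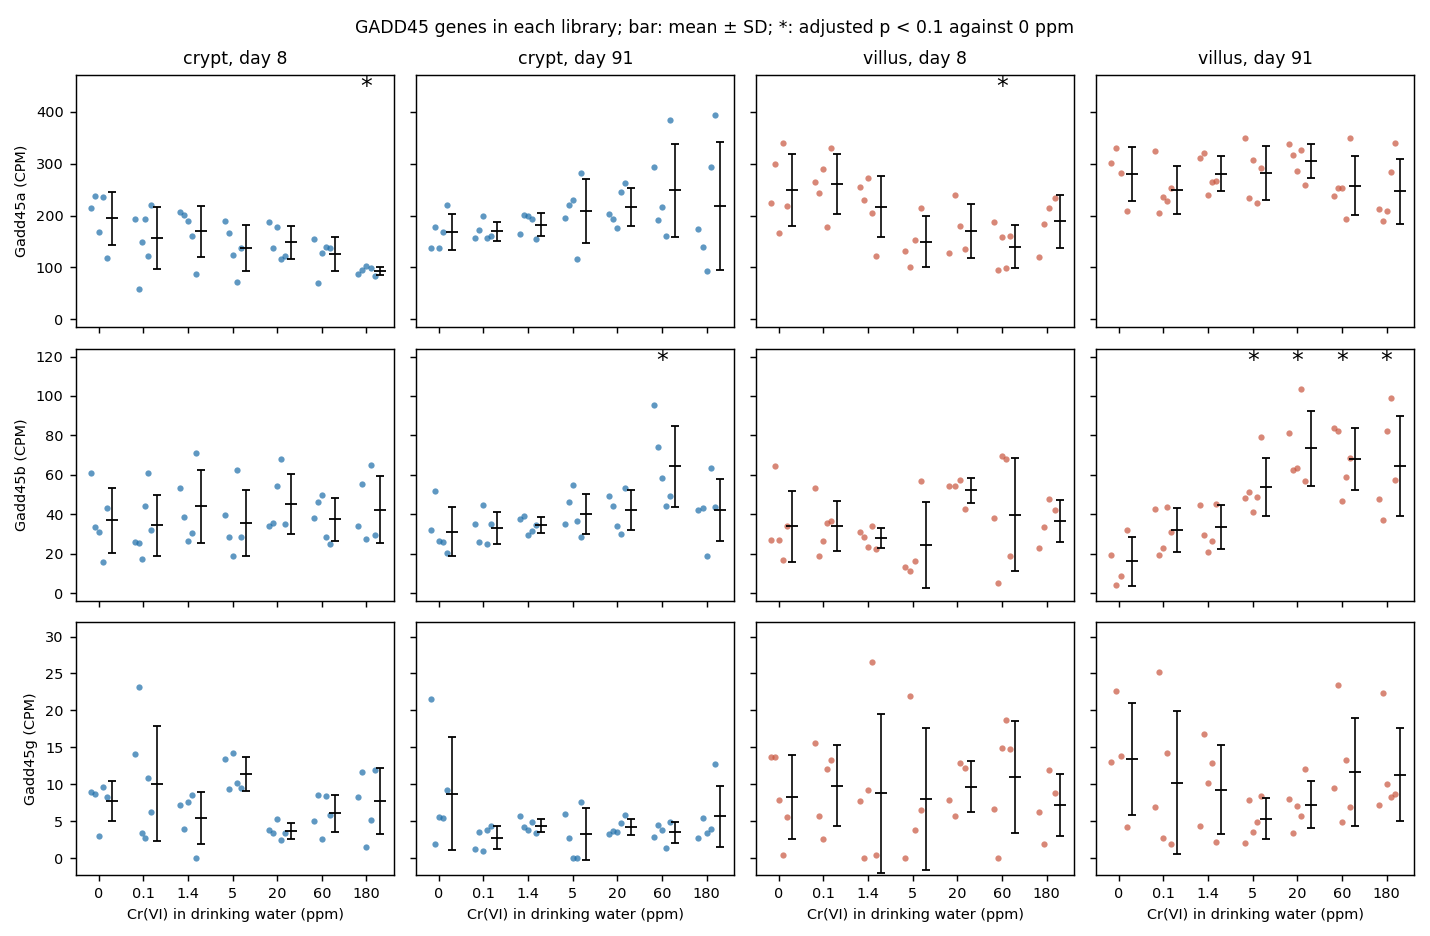
Points are the CPM of Gadd45a, Gadd45b and Gadd45g (rows) in each library by Cr(VI) dose in ppm, with a panel for each compartment and day, black bars give the mean and SD, and stars mark an adjusted p under 0.1 against 0 ppm. In the villus of day 91 Gadd45b goes from 16.1 CPM untreated to 73.4 CPM at 20 ppm, and in the crypt of day 8 Gadd45a goes from 195 to 92.9 CPM at 180 ppm.

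In crypt on day 91, Gadd45b rose at 60 ppm. Untreated crypts were at 20.3, 25.8, 26.5, 32.0 and 51.9 CPM (31.3 ± 12.2, SD, n = 5) and crypts at 60 ppm at 44.2, 49.3, 58.3, 74.1 and 95.3 CPM (64.3 ± 20.8, SD, n = 5). The ranges overlapped through the highest untreated crypt, and the log2 fold change was 1.03 (SE 0.334, edgeR adjusted p = 0.0247). It was 0.76 and not called without mouse 402, the highest crypt at 60 ppm, and was not called with DESeq2 (0.75, adjusted p = 0.126), with DESeq2 size factors (0.74, edgeR adjusted p = 0.145) or with thinned counts (0.55, edgeR adjusted p = 0.51). At 180 ppm the crypts were at 18.7, 42.1, 43.1, 43.9 and 63.5 CPM, a log2 fold change of 0.43 (edgeR adjusted p = 0.593).

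On day 8 Gadd45b was called at no dose in either compartment by edgeR or DESeq2, and none of the 12 comparisons had an unadjusted p under 0.05. At 180 ppm its log2 fold change was 0.18 in crypt and 0.10 in villus. The difference of the villus change at 180 ppm between day 91 and day 8 was 1.82 (SE 0.566), with an adjusted p of 0.114 in edgeR, and was called by DESeq2, against 0.971% of all probes called by edgeR. The difference between villus and crypt on day 91 was 1.49 (SE 0.539, unadjusted p = 0.00565, edgeR adjusted p = 0.351), so that the larger change in villus was not shown to differ from that in crypt.

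Marker sums moved with Gadd45b on day 91. In villus the leukocyte sum was 469 to 1194 CPM without and 1554 to 2886, 1689 to 3778, 1671 to 2400 and 1245 to 3071 CPM with 5, 20, 60 and 180 ppm, while by single genes only 1, 1, 1 and 2 of 6 leukocyte markers were called higher and 1, 1, 2 and 2 lower. The fibroblast sum was 126 to 332 CPM without and 341 to 570 CPM with 180 ppm, with 3 of 4 markers higher, and the smooth muscle sum was 136.6 to 622 CPM without and 110 to 208 CPM with 180 ppm, with 4 of 5 lower. The goblet sum was 978 to 2200 CPM without and 2488 to 4562 CPM with 180 ppm. No marker of these lists was at 0 in all libraries of these villi. In crypt at 60 ppm, 5 of 5 smooth muscle markers were lower (591 to 1070 CPM without and 178 to 316 CPM with exposure) and 2 of 3 goblet markers higher. The part of these cells in Gadd45b was not tested.

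Gadd45g, a cytokine- and differentiation-induced member of the family, was called at no dose (edgeR, 3 of 24 comparisons at an unadjusted p under 0.05). Its group means ran from 2.81 ± 1.57 CPM in the crypt at 0.1 ppm on day 91 to 13.4 ± 7.55 CPM in the untreated villus of day 91. In crypt on day 91, untreated libraries were at 1.91, 5.39, 5.56, 9.17 and 21.6 CPM and those at 180 ppm at 2.69, 3.41, 4.02, 5.50 and 12.7 CPM. Each of the 6 exposed groups there had a lower mean than the untreated group, which held the high library of mouse 3, and the log2 fold changes ran from -1.42 at 0.1 ppm (unadjusted p = 0.0107, edgeR adjusted p = 1) to -0.55 at 180 ppm. DESeq2 called 1 of these, at 60 ppm (log2 fold change -1.14 and adjusted p = 0.198 in edgeR). In villus on day 91, untreated libraries were at 4.21, 13, 13.8 and 22.7 CPM and those at 180 ppm at 7.19, 8.24, 8.74, 10.02 and 22.3 CPM, a log2 fold change of -0.16.

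On day 8 Gadd45g did not separate the groups either. Untreated crypts were at 3.08, 8.35, 8.70, 8.98 and 9.64 CPM and crypts at 180 ppm at 1.58, 5.17, 8.36, 11.7 and 11.9 CPM, a log2 fold change of -0.01. Untreated villi were at 0.425, 5.52, 7.82, 13.7 and 13.7 CPM and villi at 180 ppm at 1.94, 6.23, 8.88 and 11.9 CPM, a log2 fold change of -0.21. The exposed libraries overlapped the untreated ones in both compartments and, in crypt, passed them at both ends.

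Sesn1, the p53- and FoxO-responsive sestrin, was called lower by its most counted probe at high doses in 3 of the 4 sets. The probe with 17027 counts, described with the other probes, was called at 180 ppm in crypt on day 8 and not in villus on either day. The values that follow are of the most counted Sesn1 probe. In the villus of day 8, untreated libraries were at 24, 50.9, 53.3, 66.4 and 84.7 CPM (55.9 ± 22.3, SD, n = 5) and libraries at 180 ppm at 10.7, 12.8, 22.7 and 24.6 CPM (17.7 ± 6.95, SD, n = 4), the lowest mean of the 28 groups. The ranges touched only through the untreated villus of mouse 48, named above for its crypt markers. The log2 fold change was -1.61 (SE 0.402, edgeR adjusted p = 0.00472), and -1.81 without the 2 libraries named above (edgeR adjusted p = 0.00106). At 60 ppm it was -0.54 and not called (edgeR adjusted p = 0.416).

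In the villus of day 91, Sesn1 fell at 60 and 180 ppm. Untreated villi were at 33.7, 52.9, 63.3 and 78.6 CPM (57.1 ± 18.9, SD, n = 4), villi at 60 ppm at 16.9, 20.3, 28.3, 31.3 and 34.5 CPM (26.3 ± 7.44, SD, n = 5) and villi at 180 ppm at 13.1, 15.8, 25.8, 31.9 and 33.3 CPM (24 ± 9.17, SD, n = 5). At 60 ppm the highest villus passed the lowest untreated one, and at 180 ppm the groups did not overlap. The log2 fold changes were -1.08 at 60 ppm (SE 0.376, edgeR adjusted p = 0.0401) and -1.22 at 180 ppm (SE 0.381, edgeR adjusted p = 0.0198). Both calls were lost without the untreated villus of mouse 5, with values within -0.89 to -1.25 at 60 ppm and -1.03 to -1.39 at 180 ppm over all fits that left out 1 library, and the call at 60 ppm was also lost without mouse 405, its lowest library. At 20 ppm the log2 fold change was -0.89 (adjusted p = 0.111 in edgeR), and DESeq2 called it.

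In the crypt of day 91, Sesn1 fell at 60 ppm. Untreated crypts were at 15.7, 28.9, 28.9, 61.0 and 65.7 CPM (40.0 ± 22.0, SD, n = 5), crypts at 60 ppm at 11.8, 14.6, 20.8, 22.1 and 25.2 CPM (18.9 ± 5.53, SD, n = 5) and crypts at 180 ppm at 13.3, 21.1, 22.5, 23.3 and 33.7 CPM. The untreated crypts fell into 3 low and 2 high libraries, and the lowest of them was inside the range at 60 ppm. The log2 fold change was -1.09 at 60 ppm (SE 0.354, edgeR adjusted p = 0.0244), which was lost without either of the 2 high untreated crypts, mice 3 and 6 (-0.85 to -1.29 over fits that left out 1 library). At 180 ppm it was -0.81 (adjusted p = 0.185 in edgeR), and DESeq2 called it.

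In the crypt of day 8, Sesn1 was at 17.1, 19.4, 35.6, 40.9 and 68.5 CPM in untreated libraries and at 6.65, 14.8, 22.7, 34.0 and 35.2 CPM at 180 ppm. The groups overlapped, and the log2 fold change of -0.67 was not called (edgeR adjusted p = 0.397). The marker sums given above for Gadd45a and Gadd45b moved in the same groups as Sesn1, and in villus at 180 ppm 3 of 9 villus markers were lower on each day, with sums of 15750 to 24850 CPM on day 8 and of 14960 to 33060 CPM on day 91, against 34310 to 60070 CPM in the untreated villus of day 91. Their part in the decrease of Sesn1 was not tested.

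**Figure D3:**
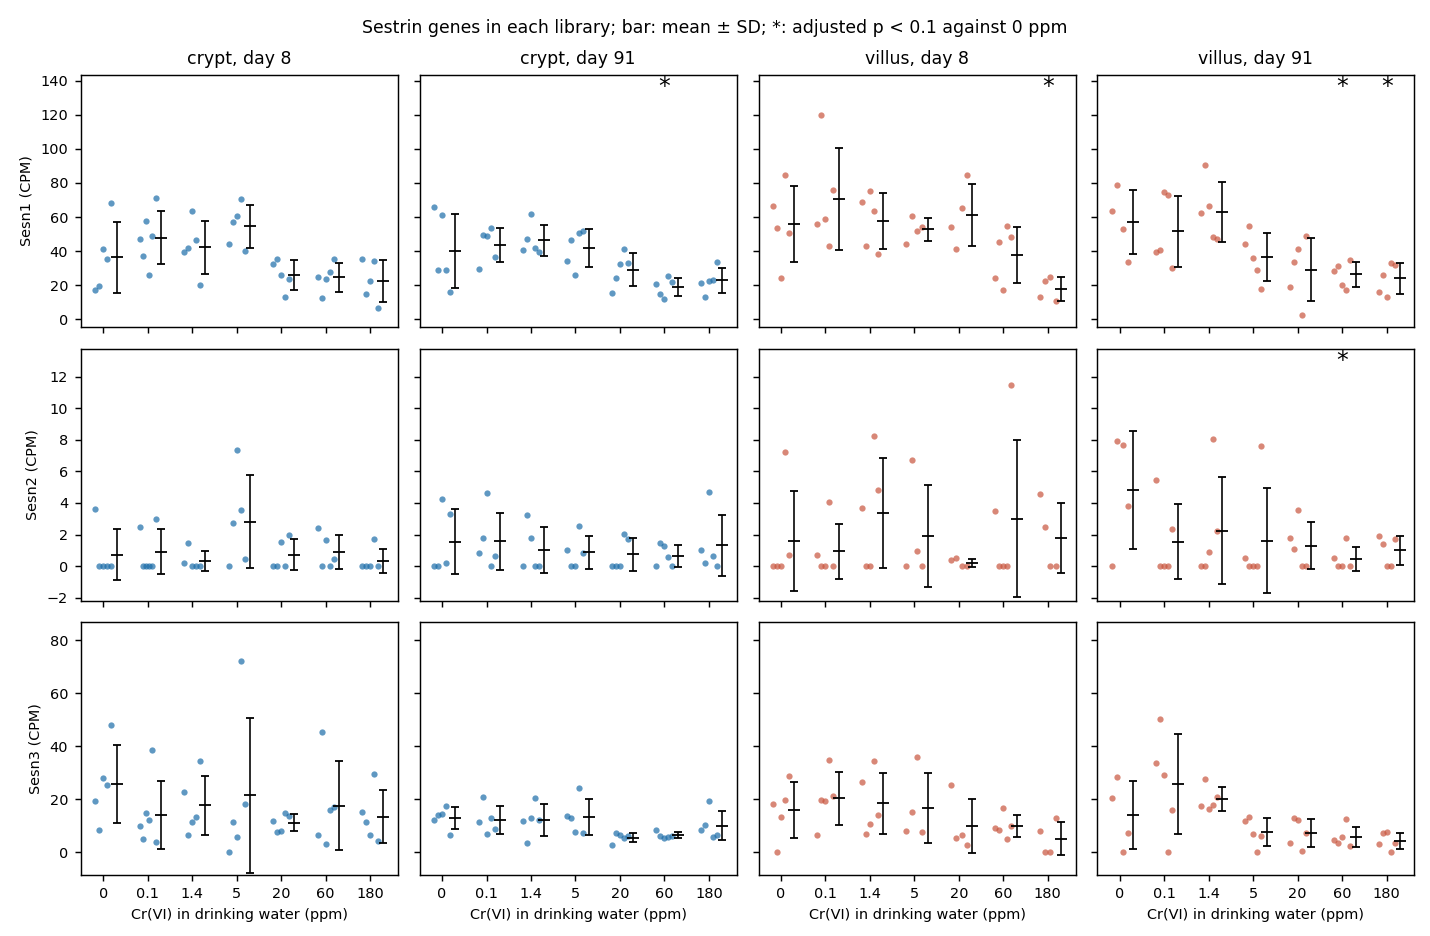
Points are the CPM of Sesn1, Sesn2 and Sesn3 (rows) in each library by Cr(VI) dose in ppm, with a panel for each compartment and day, black bars give the mean and SD, and stars mark an adjusted p under 0.1 against 0 ppm. Sesn1 goes from 55.9 to 17.7 CPM at 180 ppm in the villus of day 8 and from 57.1 to 24 CPM in the villus of day 91, and many libraries of Sesn2 lie at 0.

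Sesn2, the sestrin of the amino acid and oxidative stress responses, was near the limit of detection. Its probe had 0 counts in 68 libraries and at most 3 counts in 84, and a total of 666 counts. In the villus of day 91, untreated libraries had 0, 10, 15 and 20 counts (0, 3.83, 7.91 and 7.66 CPM) and libraries at 60 ppm had 0, 0, 0, 3 and 6 counts, and at 180 ppm 0, 0, 6, 6 and 8 counts. One untreated library was at 0 as well, so that the groups overlapped. The log2 fold change at 60 ppm was -2.43 (SE 1.38, edgeR adjusted p = 0.0974). It missed the threshold in 8 of 11 other settings and in 7 of 9 fits without 1 library, and at 180 ppm it was -1.73 (edgeR adjusted p = 0.278). The depth limits what could be detected in the other 3 sets, where every group held at least 1 library at 0 and group means lay between 0.217 and 3.35 CPM.

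Sesn3, a FoxO target, was called at no single dose (edgeR, 2 of 24 comparisons at an unadjusted p under 0.05), although its dose trend in villus was called downward. The villus means did not fall at every step: on day 91 they were 14.05 CPM untreated, 25.9 and 20.05 CPM at 0.1 and 1.4 ppm and 7.62, 7.31, 5.81 and 4.32 CPM from 5 to 180 ppm. On day 8 they were 16.0 CPM untreated, 20.3, 18.5 and 16.8 CPM at 0.1, 1.4 and 5 ppm and 9.97, 9.84 and 5.18 CPM from 20 to 180 ppm. Untreated villi of day 8 were at 0, 13.5, 18.1, 19.6 and 28.8 CPM and villi at 180 ppm at 0, 0, 7.86 and 12.9 CPM, a log2 fold change of -1.54 (edgeR adjusted p = 0.242). Untreated villi of day 91 were at 0, 7.27, 20.4 and 28.5 CPM and villi at 180 ppm at 0, 3.12, 3.66, 7.22 and 7.60 CPM, a log2 fold change of -1.47 (edgeR adjusted p = 0.241, called by DESeq2). The untreated villi include a library at 0 on each day, and the groups overlapped.

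In crypt, Sesn3 was at 8.29, 19.5, 25.3, 28 and 48.2 CPM without and at 4.36, 6.63, 11.3, 15.2 and 29.5 CPM with 180 ppm on day 8 (log2 fold change -0.91, edgeR adjusted p = 0.469). On day 91 it was at 6.55, 12.1, 13.9, 14.5 and 17.5 CPM without and at 5.71, 6.55, 8.47, 10.3 and 19.4 CPM with 180 ppm (log2 fold change -0.36, edgeR adjusted p = 0.826). The means at 20 and 60 ppm on day 91 were lower, at 5.56 and 6.42 CPM (log2 fold changes -1.16 and -0.98, edgeR adjusted p = 0.539 and 0.349). With the set of crypt and day 91 fitted on its own, both were called (-1.19 and -1.03, edgeR adjusted p = 0.0512 and 0.0352), as was the downward trend there (edgeR adjusted p = 0.0188). Exposed and untreated crypts overlapped on both days.

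A test of order over the 7 doses in each compartment and day, which does not rest on the untreated group alone, called 11 of 24 trends of the 6 genes, 3 upward and 8 downward. The shares of all probes with a called trend were 9.47% in crypt and 14.0% in villus on day 8, and 18.6% in crypt and 26.3% in villus on day 91. Sesn1 went down in all 4 sets, by -0.16 and -0.20 log2 units per dose step in crypt on days 8 and 91 (edgeR adjusted p = 0.0134 and 0.000675) and by -0.23 and -0.24 in villus (edgeR adjusted p = 0.000352 and 5.36e-05). Sesn3 went down in villus on both days, by -0.27 and -0.355 per step (edgeR adjusted p = 0.0401 and 0.00236).

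Gadd45b went up in villus on day 91 by 0.32 per dose step (edgeR adjusted p = 1.65e-07) and in crypt on day 91 by 0.12 (edgeR adjusted p = 0.0436). Gadd45a went down on day 8, by -0.14 in crypt and -0.12 in villus (edgeR adjusted p = 0.00171 and 0.0156), and up in crypt on day 91 by 0.09 (edgeR adjusted p = 0.0538). The upward Gadd45a trend was lost in 5 of 12 other settings and in 8 of 20 fits that left out 1 library. The Gadd45a probes with 12369 and 32702 counts gave -0.127 and 0.045 per step there, neither called (edgeR adjusted p = 0.15 and 0.512). Of the 3 trends that edgeR called in crypt on day 91, DESeq2 called that of Sesn1 only. The downward trend of Sesn1 in crypt on day 8 was lost without the untreated crypt of mouse 50, and that of Sesn3 in villus on day 8 without any 1 of 3 libraries. Gadd45g had no called trend. The chosen Sesn2 probe gave -0.28 per step in villus on day 91 without passing (edgeR adjusted p = 0.131), and its other probe was called downward there (-0.32 per step, edgeR adjusted p = 0.0867). The Sesn2 trend was also called with both probes summed (-0.35, edgeR adjusted p = 0.0183), with DESeq2 size factors (edgeR adjusted p = 0.0782) and with the set fitted on its own (edgeR adjusted p = 0.0975), but not by DESeq2 (adjusted p = 0.226).

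In untreated mice the study also compared crypt with villus, and 5 mice of day 8 and 4 of day 91 gave both libraries. On day 91 Gadd45a was lower in crypt, at 168 CPM against 281 CPM in villus (log2 crypt over villus -0.74, SE 0.265, edgeR adjusted p = 0.0676), and the villus was higher in 4 of 4 mice. With the mouse as a block the value was -0.85 (edgeR adjusted p = 0.00912). The call without the block was lost in 7 of 9 fits that left out 1 library. Of the 6 genes 1 was called on day 91, where 10.9% of all probes were, and Gadd45b gave 0.89 in the other direction without passing (edgeR adjusted p = 0.2).

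On day 8 none of the 6 genes differed between untreated crypt and villus past the threshold, none had an unadjusted p under 0.05, and DESeq2 called none, where 0.637% of all probes were called by edgeR. Sesn3 was higher in crypt in 5 of 5 mice, at 25.9 against 16.0 CPM (log2 crypt over villus 0.66, edgeR adjusted p = 0.624), and Gadd45a was higher in villus in 4 of 5 mice (-0.35, edgeR adjusted p = 0.58). The villus of mouse 48 and the crypt of mouse 49 are among these pairs.

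**Figure D4:**
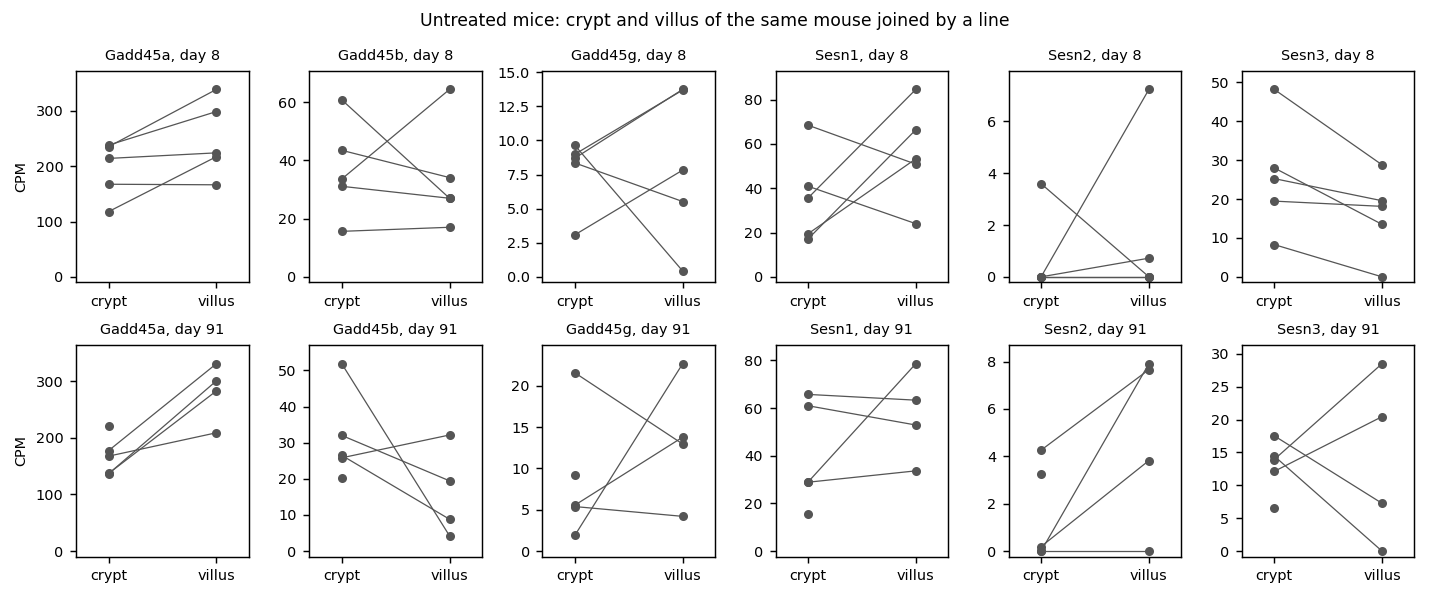
Each line joins the crypt and the villus of 1 untreated mouse, with the level in CPM on the vertical axis, a panel for each gene and day 8 and day 91 shown apart. Gadd45a is higher in villus in 4 of 4 mice of day 91, and Sesn3 is higher in crypt in 5 of 5 mice of day 8.

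The change with 180 ppm in villus minus that in crypt was called for none of 12 tests of the 6 genes in edgeR or DESeq2, with 1 at an unadjusted p under 0.05, where 0.00379% of all probes were called on day 8 and 0.224% on day 91. On day 8 the values were 0.66 for Gadd45a (SE 0.368) and -0.94 for Sesn1 (SE 0.538), with edgeR adjusted p = 0.616 and 0.619. On day 91 the value for Sesn1 was -0.40 (SE 0.514, edgeR adjusted p = 0.931).

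Across the 28 group means no gene had a pair of neighbours in the order of its levels that lay apart by more than 1 SD. With 28 means in order and SDs of this size neighbours lie close in any case, so that this does not show whether an order is graded. Gadd45a ran from 92.9 ± 8.06 CPM (crypt, day 8, 180 ppm) to 305 ± 32.4 CPM (villus, day 91, 20 ppm), and Gadd45b from 16.1 ± 12.4 CPM (villus, day 91, untreated) to 73.4 ± 19.1 CPM (villus, day 91, 20 ppm). Sesn1 ran from 17.7 ± 6.95 CPM (villus, day 8, 180 ppm) to 70.7 ± 29.8 CPM (villus, day 8, 0.1 ppm). Sesn2 ran from 0.217 ± 0.255 to 4.85 ± 3.74 CPM and Sesn3 from 4.32 ± 3.15 CPM (villus, day 91, 180 ppm) to 25.9 ± 19.0 CPM (villus, day 91, 0.1 ppm).

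The 6 genes had 14 probes in all, and the ones that stood for them were chosen by total count: 101296 for Gadd45a (others 32702 and 12369), 21205 for Gadd45b (other 16574), 3702 for Gadd45g (other 1203), 19843 for Sesn1 (others 17027, 6723 and 20), 666 for Sesn2 (other 316) and 6724 for the single probe of Sesn3. All but the Sesn1 probe with 20 counts passed the count filter. Probes of the same gene did not all give the same calls.

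The second Gadd45b probe was called at no dose in the villus of day 91. It was at 30.1 CPM in untreated villi, and its log2 fold changes were 0.04, 0.82, 0.80 and 0.23 at 5, 20, 60 and 180 ppm (edgeR adjusted p = 0.988, 0.279, 0.287 and 0.833). With the counts of both probes summed, Gadd45b gave 0.70 at 5 ppm, which was not called (edgeR adjusted p = 0.183), and 1.28, 1.3 and 1.05 at 20, 60 and 180 ppm, which were (edgeR adjusted p = 0.00282, 0.00192 and 0.0188).

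For Gadd45a, the probe with 12369 counts fell in crypt on day 8 at 180 ppm by 1.68 on the log2 scale (edgeR adjusted p = 0.0329), as did the chosen one. It also fell in villus on day 91, where the chosen probe did not, with log2 fold changes of -1.5, -1.32 and -1.45 at 20, 60 and 180 ppm (edgeR adjusted p = 0.0242, 0.0507 and 0.0319), and in crypt on day 91 at 60 ppm (-1.22, edgeR adjusted p = 0.0665). The probe with 32702 counts was called at no dose. A trend test called the 12369-count probe downward in crypt on day 8 and villus on day 91, and the 32702-count probe downward in villus on day 8.

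For Sesn1, the probe with 17027 counts fell in crypt on day 8 at 180 ppm (log2 fold change -1.39, edgeR adjusted p = 0.00915) with no overlap, where the chosen one was not called. At 180 ppm in the other sets it was below the untreated level without passing, with -0.95 in villus on day 8 and -0.67 in villus on day 91 (edgeR adjusted p = 0.15 and 0.298). The probe with 6723 counts gave -1.1 in villus on day 91 at 180 ppm (edgeR adjusted p = 0.23). The dose trend was downward and called for 2 or more of the 3 tested Sesn1 probes in each of the 4 sets.

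**Figure D5:**
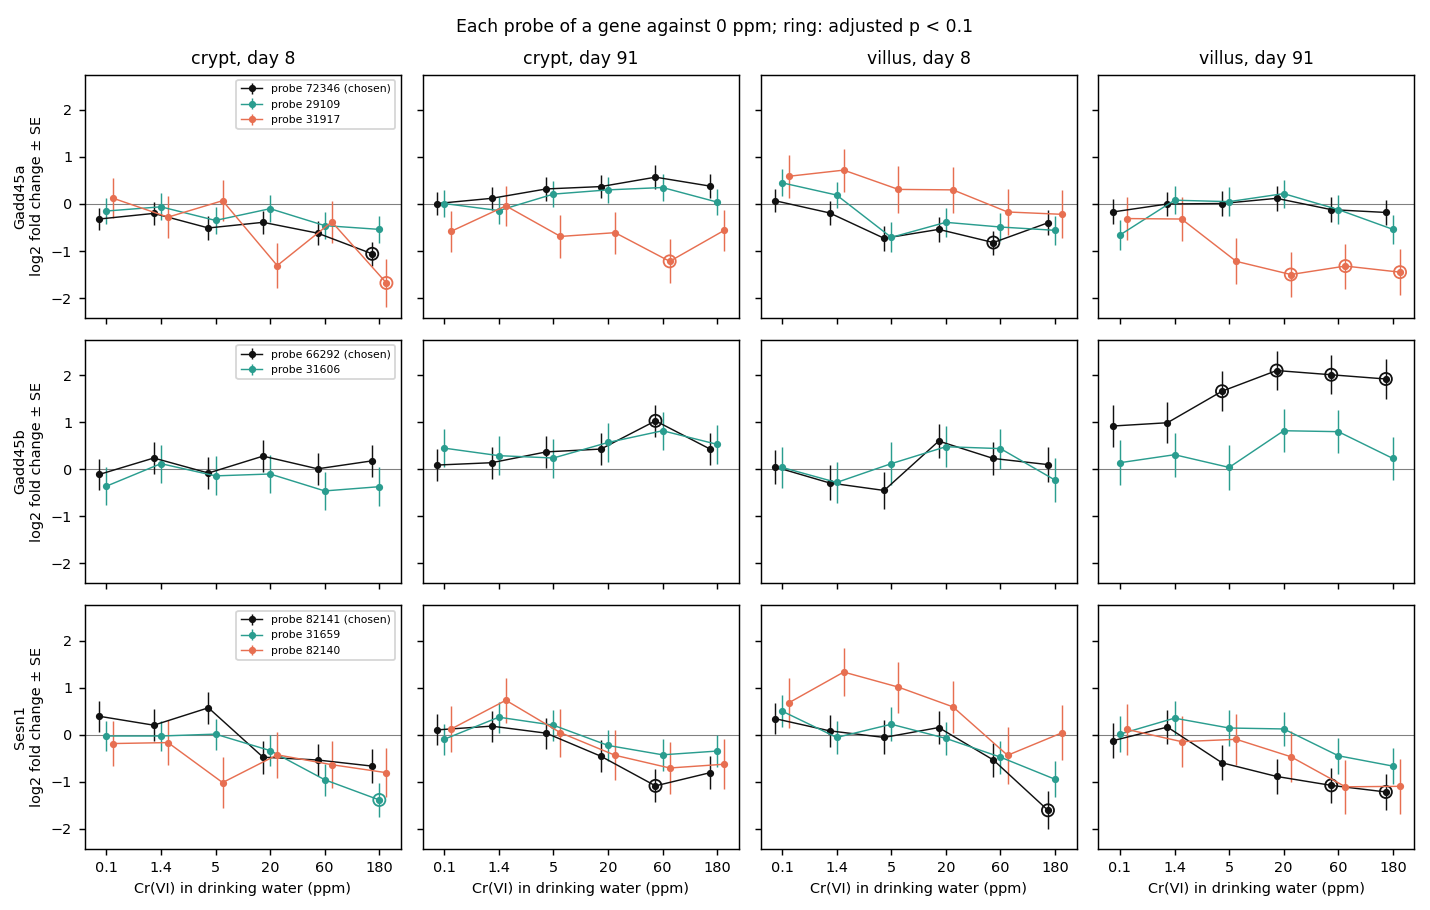
Each point is the log2 fold change of 1 probe against 0 ppm at 1 dose, in panels by gene and set, and a ring marks an adjusted p under 0.1. In the villus of day 91 the chosen Gadd45b probe lies at 1.66 to 2.10 from 5 ppm upward while the second lies at 0.04 to 0.82.

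Genes that respond with the members to the same factors, or whose products bind theirs, were read from lists, given as called genes at 180 ppm in the order crypt day 8, crypt day 91, villus day 8 and villus day 91. Of 22 p53 targets, 0, 3, 2 and 4 rose and 1, 1, 2 and 2 fell, with medians of -0.38, 0.16, 0.0 and 0.48. In villus on day 91, 8 of 22 rose and 1 fell at 20 ppm and also at 60 ppm, while DESeq2 called 6 higher and 3 lower at each of these doses. Mdm2, the ubiquitin ligase that limits p53, rose by 1.87 on the log2 scale in villus on day 91 (47.4 against 11.9 CPM), whereas Btg2, an antiproliferative p53 target, fell there by 2.22 (37.3 against 176 CPM). Pmaip1, which encodes the apoptosis inducer NOXA, fell on day 8 by 1.59 in crypt and by 1.70 in villus, and Aen and Perp rose in crypt on day 91 by 1.24 and 1.44.

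Of 27 genes of ATF4 and the integrated stress response, 2, 2, 1 and 6 rose and 0, 0, 0 and 1 fell, with medians of 0.50, 0.48, 0.44 and 0.60. With DESeq2 the increases numbered 3, 2, 2 and 3, and 2 genes fell in villus on day 91. Atf4 itself rose in villus by 0.63 on day 8 and 0.75 on day 91, and Atf5 by 1.89 in villus on day 91, while Mthfd2, of mitochondrial folate metabolism, rose in crypt by 0.96 and 1.36. The 0 decreases in the first 3 sets compare with 3, 1 and 0 at an unadjusted p under 0.05 and with 1, 0 and 0 by DESeq2. Sesn2, a target of ATF4, was not called higher in any of these groups. Of 19 genes of the NRF2 antioxidant response, 1, 3, 2 and 4 rose and 1, 0, 1 and 1 fell, with medians of -0.02, 0.29, 0.28 and 0.41. With DESeq2, 2, 3, 4 and 2 of them rose and 2, 0, 2 and 1 fell. Gsr, glutathione reductase, rose by 1.25 in crypt on day 91 and by 1.5 and 1.67 in villus on days 8 and 91, and Gclc, of glutathione synthesis, rose by 1.33 and 1.05 in crypt on days 8 and 91 and by 1.83 in villus on day 91. The ferritin chain Fth1 fell in crypt on day 8 by 1.38.

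Of 8 FoxO factors and targets none rose at 180 ppm and 4, 3, 5 and 3 fell, with medians of -1.02, -0.63, -0.94 and -0.77. In villus on day 91 the lower doses differed, with 2 of 8 called higher at each of 5, 20 and 60 ppm, 0, 2 and 3 called lower (2, 2 and 3 at an unadjusted p under 0.05, 2, 3 and 3 by DESeq2) and medians of 0.11, -0.14 and -0.60. Irs2, the insulin receptor substrate, fell on day 8 by 2.15 in crypt and 1.88 in villus, and Pdk4, which restrains pyruvate oxidation, fell by 3.88 in villus on day 8 (3.98 against 67.5 CPM). Foxo3 fell by 1.08 in crypt on day 8, and Ccng2 and Pink1 fell on day 91 in both compartments, by 1.85 and 0.91 in crypt and by 1.15 and 1.08 in villus. Sesn1, itself a FoxO target and not in this list, was called lower at 180 ppm in the villus on both days by its most counted probe. In these FoxO counts, 0, 0, 0 and 1 gene rose at an unadjusted p under 0.05 in edgeR, and DESeq2 called none higher and 5, 5, 5 and 3 lower.

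Of 9 NF-kB and SMAD response genes, 0, 0, 0 and 2 rose and 2, 1, 1 and 1 fell, with medians of -0.31, -0.13, -0.35 and 0.33. In villus on day 91 DESeq2 called 1 of them higher and 2 lower. Birc3, an NF-kB target, rose by 1.45 there, while Nfkbia and Smad7 fell in crypt on day 8 by 1.1 and 1.17. Of 11 immediate early genes, 0, 1, 0 and 2 rose and 1, 0, 1 and 1 fell, with medians of -0.71, 0.53, 0.17 and -0.28. Egr1 and Ier2 rose by 3.31 and 0.67 in villus on day 91, and Dusp1 and Jun fell on day 8 by 2.08 in crypt and 1.62 in villus.

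Of 12 tested partners of GADD45 proteins, 0, 3, 1 and 1 rose and none fell (0, 1, 0 and 1 at an unadjusted p under 0.05 in edgeR, 0, 0, 0 and 1 by DESeq2), with medians of 0.44, 0.37, 0.25 and 0.24. The increases numbered 1, 1, 1 and 1 with DESeq2. Tdg rose by 1.01 in crypt and 1.02 in villus on day 91, Ccnb1 by 1.18 in crypt on day 91, and Map2k3, a kinase upstream of p38, rose in villus on day 8 (68.3 against 30.3 CPM). Of 27 tested partners of sestrins, 0, 1, 0 and 4 rose and none fell (0, 0, 1 and 2 at an unadjusted p under 0.05 in edgeR, 0, 0, 1 and 2 by DESeq2), with medians of 0.0, -0.05, -0.21 and 0.05. Their increases numbered 0, 1, 0 and 2 with DESeq2. Sqstm1, which encodes p62, rose by 1.21 in villus on day 91 and Prkaa2, a catalytic subunit of AMPK, by 1.15, and in crypt on day 91 Sec13, a subunit of GATOR2, rose by 0.57. No probe was found for Map2k7 and Kics2 of these lists. These lists were read against the shares of all probes and their medians given above, without a test of the list. DESeq2 and an unadjusted p under 0.05 likewise gave no increase of p53 targets in crypt on day 8, no increase of NF-kB and SMAD genes in the first 3 sets and no decrease of NRF2 genes in crypt on day 91.

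Likeness was described as Pearson's r of mean log2 CPM over the 28 groups, among 10939 genes, which share libraries and depth. The genes most like Gadd45a were Fth1 (0.919), Foxq1 (0.916) and Dopey2 (0.909), those most like Gadd45b were Safb (0.88), Gclc (0.866) and Dnajc25 (0.864), and those most like Gadd45g were Nes (0.632), Pip5k1a (0.601) and Zfp655 (0.59). For Sesn1 they included Mov10 (0.883) and Sema6a (0.881), and they were for Sesn2 Rai14 (0.6), Ube2l6 (0.591) and Rsph3b (0.588), and for Sesn3 Snx29 (0.805), Arl10 (0.79) and Mapkap1 (0.778). Between the members r was highest for Sesn1 with Sesn3 (0.55) and lowest for Gadd45b with Sesn2 (-0.591) and with Sesn1 (-0.571). The GADD45 genes were not alike among themselves, with r from -0.058 to 0.171.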

How the data were processed

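Counts of 30146 TempO-Seq probes in 71 crypt and 66 villus libraries from 71 mice were used as the authors deposited them: whole-number reads per probe, not normalized, with bcl2fastq 2.17.1.14 and Bowtie named in the submitters' processing notes. The study's methods state that libraries of low depth or low gene diversity were left out before comparison. The genome build of the probes is not given in the sources used here. The 6 genes and all lists were chosen with earlier results of these data known. A gene was represented by its most counted probe, and this choice used totals over all groups and no contrast.

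One edgeR 4.0.16 quasi-likelihood fit (R 4.3.3, limma 3.58.1) held all 28 groups, with TMM scaling, filterByExpr (26365 probes kept) and a prior count of 2. Each dose was tested against 0 ppm of the same compartment and day, two-sided, with Benjamini-Hochberg adjustment over all probes and a threshold of 0.1, as were a linear contrast over the ranks of the 7 doses, untreated crypt against villus, and interactions. The p-values set a difference against the spread between mice within groups. The fit held no term for the mouse, so that tests of crypt against villus did not use the pairing except with the mouse as a block. The fit was also tested on simulated data, with the same spread for all probes and changes only in well-counted ones. That test does not cover low counts such as those of Sesn2. Alternatives were DESeq2 1.42.0, DESeq2 size factors, other filters and fits, thinned counts, covariates, summed probes and libraries left out. Fits that left out 1 library at a time covered the 77 libraries of the untreated groups and of the doses above 5 ppm.

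Named genes were the 6 members, the 2 genes of each list with the smallest adjusted p at 180 ppm in each set, and the 3 genes most like each member. Some genes that this rule names are not reported here. Crypt and villus libraries with the same number in their titles came from the same mouse. The median correlation of their residuals was 0.094 over 66 pairs (15114 probes), against -0.023 over 269 pairs that joined crypt and villus of 2 mice of 1 group. Counting error of a probe follows from its count: values of at most 3 counts were treated as the detection floor. Sequences came from the RefSeq promoter table of GRCm38.p6, positions from the GRCm38 annotation, and the likeness and marker tables from Python 3.11.15.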

Additional observations from a re-analysis of the deposited data

Results flagged for a closer look

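In groups of 4 to 10 libraries, a library was picked out where its gap to the nearest other exceeded Dixon's 95% critical value. This held in 18 of 168 groups. Chance alone flags about 1 in 20 groups only where values are continuous and normally distributed. Sesn2 had no counts in 68 libraries, so that rate does not apply to its groups. The number of groups picked out was therefore not compared with chance.

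For Gadd45b, the villus of mouse 290 at 5 ppm on day 8 was at 56.9 CPM against 11.2 to 16.5 CPM in the others, and the villus of mouse 246 at 5 ppm on day 91 was at 79.1 CPM against 41.0 to 51.4 CPM. The latter group was called higher than untreated villi, and all 5 of its libraries were above them. For Gadd45g, the untreated crypt of mouse 48 on day 8 was low at 3.08 CPM (others 8.35 to 9.64), while at 180 ppm on day 91 the crypt of mouse 490 was at 12.7 CPM (others 2.69 to 5.50) and the villus of mouse 484 at 22.3 CPM (others 7.19 to 10.02).

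Sesn2 gave 9 of the 18, each a library above the rest of its group, which lay at 0 to 2.21 CPM. Where all the others were at 0, any library with counts is picked out, so such a flag reflects the detection floor. In 2 of these groups another library also held more than 3 counts, with 5 in crypt at 180 ppm and 7 in villus at 1.4 ppm, both on day 91. The 9 libraries were in crypt on day 8 mouse 46 at 0 ppm (3.59 CPM), mouse 207 at 1.4 ppm (1.47 CPM) and mouse 529 at 180 ppm (1.72 CPM), and in crypt on day 91 mouse 485 at 180 ppm (4.67 CPM). In villus they were mouse 49 at 0 ppm (7.23 CPM), mouse 129 at 0.1 ppm (4.03 CPM) and mouse 288 at 5 ppm (6.71 CPM) on day 8, and mouse 164 at 1.4 ppm (8.07 CPM) and mouse 246 at 5 ppm (7.58 CPM) on day 91. For Sesn3, the crypts of mouse 129 at 0.1 ppm (38.8 CPM, others 3.87 to 14.9) and of mouse 289 at 5 ppm (72.3 CPM, others 0 to 18.1) stood apart on day 8, as did the crypt of mouse 402 at 60 ppm on day 91 (8.35 CPM, others 5.48 to 6.22) and the villus of mouse 366 at 20 ppm on day 8 (25.2 CPM, others 2.77 to 6.46).

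One difference between groups passed its own test: the log2 change of Gadd45a with 180 ppm in crypt was higher by 1.44 on day 91 than on day 8 (edgeR adjusted p = 0.0914), with 5 of 5 exposed crypts below all untreated ones on day 8 and exposed crypts on both sides of them on day 91. This is of the chosen probe, and the call was lost in 9 of 11 other settings.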

How the results depend on the processing

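No call of the 6 genes changed direction in any setting run. Of values for single genes, 269 kept and 29 lost their call under other settings, and 294 kept and 53 lost it with 1 library left out. Calls counted over the 6 genes and 6 doses in crypt on day 8 went from 1 to 2 with DESeq2, where both were of Gadd45a, and with probes summed. In crypt on day 91 such calls, not genes, went from 2 to 6 when each set was fitted on its own and to 1 with thinned counts. The 1 call for the 180 ppm effect of day 91 minus day 8 went to 0 with log10 total count as a covariate, without the untreated villus of mouse 48 and crypt of mouse 49, with probes summed, without mouse 90, with no count filter, with DESeq2 size factors and with thinned counts, and to 2 with a mean count of at least 10. The causes of these changes were not tested.

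Libraries were left out 1 at a time from the untreated groups and from the doses above 5 ppm, 77 in all. Exposed libraries at 5 ppm or below were kept in all these fits, so the ranges do not show how far results rest on them. The calls over the doses ranged from 1 to 1 in crypt on day 8 and from 1 to 4 in crypt on day 91. They ranged from 1 to 2 in villus on day 8 and from 4 to 8 in villus on day 91. Trends ranged from 9 to 12, untreated crypt against villus from 0 to 0 on day 8 and from 0 to 2 on day 91, villus minus crypt from 0 to 1, day 91 minus day 8 from 0 to 2, and the calls in the gene lists from 213 to 261 around 243. With the mouse as a replicate block, the pairing of crypt and villus changed no call: 0 and 1 members on days 8 and 91, and 0 for villus minus crypt.

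Depth limits Sesn2 most, with at most 3 counts in 84 libraries, and Gadd45g and Sesn3 less. The Gadd45b increase in villus on day 91 rests on 4 shallow untreated libraries and on 1 of 2 probes.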
